A study of Mus musculus with 5 samples.

Results

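The lipid-associated macrophage and cholesterol efflux genes described here are 10 genes chosen by name: Apoe, Trem2, Abca1, Abcg1, Nr1h3, Lpl, Gpnmb, Spp1, Fabp5 and Cd9. All 10 were found by symbol among the 46983 genes of the count files, and all 10 passed the filter on low counts. They were measured by RNA-seq in cells labelled as freshly sorted tumour-associated macrophages (CD45+ CD11B+ Ly6G- F4/80+) from tumours of the mouse breast cancer line EO771, implanted into the mammary gland of strain C57/BL6. For the 2 Treg-ablated libraries, diphtheria toxin was given in 2 doses of 50 µg per kg; it kills regulatory T (Treg) cells where these carry a toxin receptor, with sorting on day 4. The 3 control libraries came from untreated tumours, so what the toxin does by itself and what follows from Treg loss cannot be told apart. The allele that makes the Treg cells sensitive, the age of the mice and whether animals were pooled are not given in the sources used here. Whether libraries of 1 group stem from different mice is likewise not labelled, and p-values therefore reflect only how much these libraries vary, which may be technical.

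Macrophages that take up lipid, from dying cells for example, can turn on a common set of genes. TREM2 is a surface receptor that senses lipids and lipoproteins, and LXR nuclear receptors, one of which is the product of Nr1h3, sense oxidised cholesterol and switch on genes that export it. ABCA1 and ABCG1 carry cholesterol out of the cell, apolipoprotein E (Apoe) accepts it, lipoprotein lipase (Lpl) and FABP5 supply and carry fatty acids, and GPNMB, CD9 and osteopontin (Spp1) are often used as markers of such macrophages in tumours and fat.

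Library totals ran from 13122668 to 20156835 counts, and values below are CPM (counts relative to the library total, scaled by the TMM method). Transcripts of the gated surface proteins were scarce: Ptprc (CD45) had 22.1 to 33.0 CPM, Itgam (CD11b) 12.2 to 19.0 CPM, Adgre1 (F4/80) 5.73 to 9.87 CPM, and Ly6g, which the gate excludes, at most 0.189 CPM. The summed level of 14 fibroblast markers was 12440 to 14624 CPM in controls and 12880 to 13549 CPM after ablation. Col3a1 alone, at 7467 to 9556 CPM over all 5 libraries, made up most of this sum. The summed level of 22 macrophage markers was 584 to 618 CPM in controls and 345 to 414 CPM after ablation. The libraries thus hold much RNA of genes that fibroblasts express, and the changes below are not assigned to a cell type. In such bulk samples, fewer cells of a type and less RNA per cell cannot be told apart.

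After Treg ablation, 4 of the 10 genes were lower and 2 were higher. Apoe, Trem2, Abca1 and Gpnmb fell, Spp1 and Cd9 rose, and Abcg1, Nr1h3, Lpl and Fabp5 did not pass (edgeR's quasi-likelihood test, Benjamini-Hochberg adjusted p under 0.05 over all genes). The background was high: of 14580 genes tested, 25.8% were called, 13.5% as higher (1971 genes) and 12.3% as lower (1787 genes). Without control replicate 2 these numbers were 812 and 554. Of the calls, those of Apoe, Trem2 and Abca1 exceeded a fold of 1.5. Both groups' values did not overlap for 8 of the 10 genes, as they did not for 52.5% of all genes tested. The median log2 fold change of the 10 genes was −0.34, against −0.0062 over all genes tested. The number of genes higher was 1 without Treg-ablated replicate 1 and without control replicate 2, the call of Cd9 being the one that ended.

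**Figure D1:**
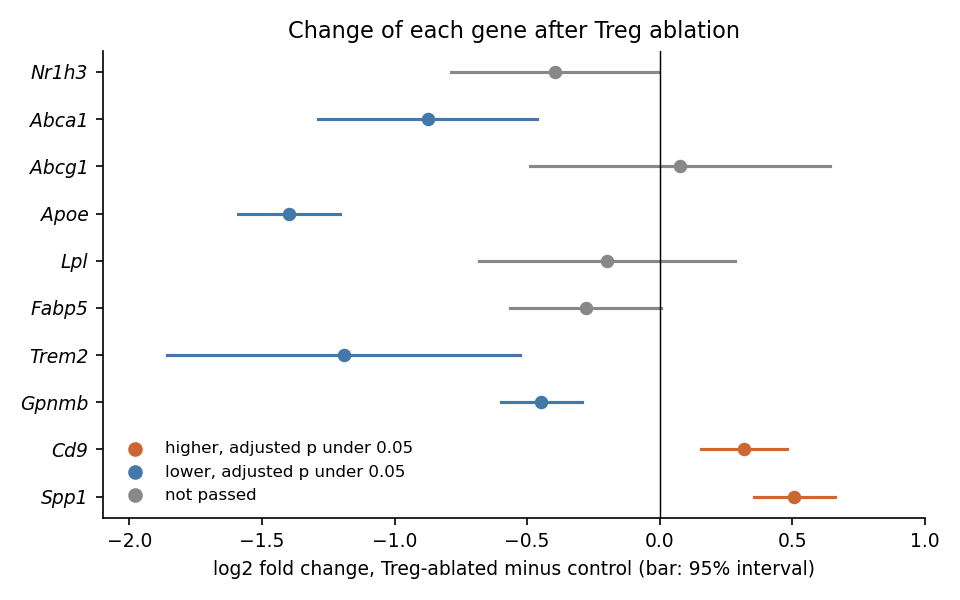
Log2 fold change (Treg-ablated minus control) of each of the 10 genes with its 95% interval, ordered by role from the LXR receptor gene at the top to osteopontin at the bottom. Apoe has the lowest value at −1.40, Spp1 the highest at 0.51, and the interval of Trem2 is the widest.

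The stretch of 250 bases before the gene start is shown for 3 of the genes that fell (Abca1, Apoe and Trem2) and for Spp1, which rose, so that they can be read side by side. Sequences are those of RefSeq on GRCm38.p6, written 5′ to 3′ along the gene, and capitals mark every match to 6 motifs searched on both strands. Abca1 is at chr4:53159896-53160145 (minus strand), Apoe at chr7:19699189-19699438 (minus strand), Trem2 at chr17:48346151-48346400 (plus strand) and Spp1 at chr5:104434861-104435110 (plus strand).
Abca1: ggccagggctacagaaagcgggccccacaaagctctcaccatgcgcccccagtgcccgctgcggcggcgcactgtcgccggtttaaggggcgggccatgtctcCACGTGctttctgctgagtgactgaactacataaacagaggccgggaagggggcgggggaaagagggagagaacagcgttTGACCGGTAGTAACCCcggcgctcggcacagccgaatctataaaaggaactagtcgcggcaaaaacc
Apoe: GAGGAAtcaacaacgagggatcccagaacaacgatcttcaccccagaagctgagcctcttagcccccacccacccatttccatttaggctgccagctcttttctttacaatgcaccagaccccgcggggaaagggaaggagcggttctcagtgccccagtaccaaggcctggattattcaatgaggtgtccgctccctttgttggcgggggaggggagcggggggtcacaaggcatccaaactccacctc
Trem2: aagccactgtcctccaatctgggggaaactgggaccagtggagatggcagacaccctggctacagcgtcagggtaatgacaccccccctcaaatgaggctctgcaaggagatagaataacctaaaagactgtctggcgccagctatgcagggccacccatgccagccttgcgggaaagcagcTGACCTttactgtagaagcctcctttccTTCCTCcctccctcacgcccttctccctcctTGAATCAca
Spp1: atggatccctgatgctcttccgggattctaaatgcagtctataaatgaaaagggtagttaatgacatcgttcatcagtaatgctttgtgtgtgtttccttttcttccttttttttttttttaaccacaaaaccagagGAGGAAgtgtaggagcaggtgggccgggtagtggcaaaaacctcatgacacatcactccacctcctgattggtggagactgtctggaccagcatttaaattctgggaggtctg
The upstream stretch of Abca1 held a match to the LXR element, a direct repeat of AGGTCA with NNNN between the copies, with 3 mismatches in the fixed letters, which was the most allowed. It lies on the minus strand of the gene, at bases −67 to −52, and reads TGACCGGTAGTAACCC as printed above. A match of this quality was present in 18.5% of all 32851 RefSeq promoters, and in 1 of the 7 genes of the set that have an entry. Abca1 also held the E-box CACGTG (6.02% of promoters). Trem2 held the hexamer AGGTCA (14% of promoters), the AP-1 site TGANTCA (6.75%) and the PU.1 core GAGGAA (23.3%), and this core was also in Apoe and Spp1. The interferon-gamma activated site TTCNNNGAA (7.02% of promoters) was in 0 of the 7. The single hexamer AGGTCA is also contained in the LXR element. These are matches of letters in 1 window and were not tested against the expression values. Gpnmb and Cd9 held no match to any of the 6 motifs in this window. Nor did Nr1h3, but its RefSeq window lies 7718 bases inside the gene model of the files. Abcg1, Lpl and Fabp5 were not searched.

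The levels of the 10 genes differed by more than 3 orders of magnitude per kilobase of exon. In controls Spp1 was first at 820 ± 27.9 CPM per kilobase (SD, n = 3), followed by Cd9 at 103 ± 5.21, Apoe at 32.3 ± 0.439, Gpnmb at 15.7 ± 0.45, Fabp5 at 3.45 ± 0.247 and Nr1h3 at 1.97 ± 0.265 CPM per kilobase. These 6 did not overlap with their neighbours in the order. Below them came Trem2 at 0.776 ± 0.0734, Abcg1 at 0.617 ± 0.139, Lpl at 0.452 ± 0.0352 and Abca1 at 0.426 ± 0.0322 CPM per kilobase. Trem2 overlapped with Abcg1, and Lpl with Abca1. Spp1 alone made up 76.6% to 77.2% of the summed counts of the 10 genes in controls, and 82.8% and 83.9% in Treg-ablated replicates 1 and 2. Per library, Spp1 had 20.7 to 21.4 times the counts of Apoe in controls, and 73.9 and 86.5 times after ablation.

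**Figure D2:**
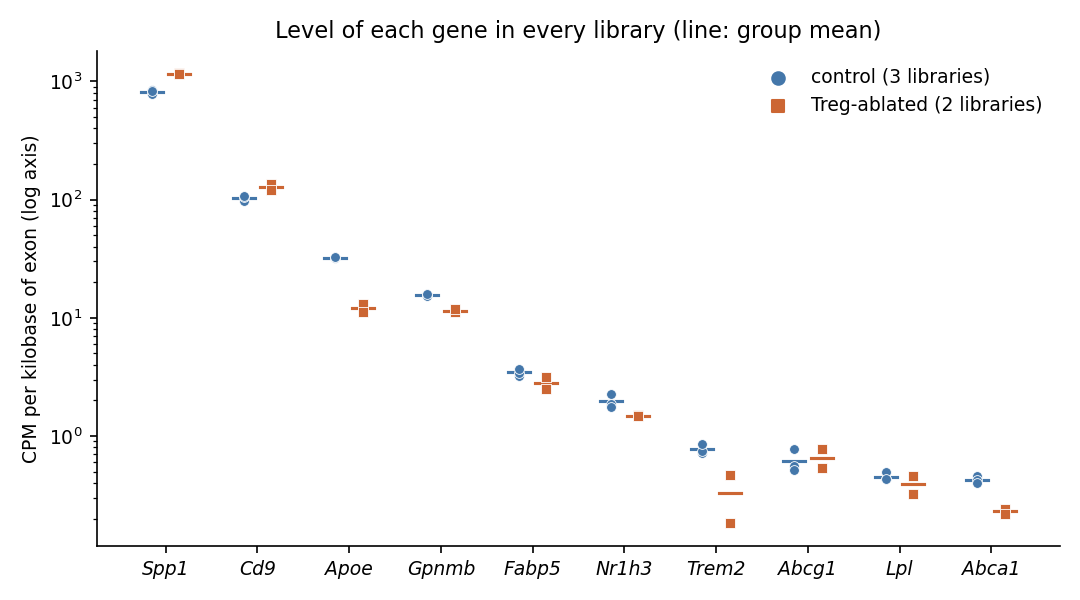
Level of each gene in every library, in CPM per kilobase of exon on a log axis, with controls as circles, Treg-ablated libraries as squares and lines at the group means, ordered by the control mean. Spp1 lies between 788 and 1173 CPM per kilobase, while Abca1, Lpl, Abcg1 and Trem2 all lie below 1.

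Of the LXR and export genes, Abca1 fell while Abcg1 and Nr1h3 did not pass. Abca1 (ENSMUSG00000015243, chromosome 4, 53030787 to 53159895), the transporter that loads cholesterol onto lipid-poor apolipoproteins, had 2.52 and 2.26 CPM in Treg-ablated replicates 1 and 2, and 4.77, 4.36 and 4.11 CPM in control replicates 1, 2 and 3. Both Treg-ablated libraries were below all controls. The log2 fold change was −0.88 (SE 0.187, edgeR adjusted p = 0.00809), a 1.83-fold fall. Its counts were 40 and 30 against 71, 87 and 59, and the adjusted p ranged up to 0.0428 over all alternatives, still under the threshold.

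Abcg1 (ENSMUSG00000024030, chromosome 17, 31057698 to 31115777), which exports cholesterol to mature lipoprotein particles, had 3.15 and 2.19 CPM after ablation and 2.28, 3.155 and 2.09 CPM in controls. The groups overlapped fully, with a log2 fold change of 0.08 (95% interval −0.49 to 0.64, edgeR adjusted p = 0.85). Nr1h3 (ENSMUSG00000002108, chromosome 2, 91184061 to 91202834), which encodes LXR alpha, had 3.78 and 3.70 CPM after ablation and 4.70, 4.46 and 5.71 CPM in controls. Its groups did not overlap, yet the log2 fold change of −0.39 (95% interval −0.79 to −0.0032) did not pass after adjustment (edgeR adjusted p = 0.126). At these counts, between 29 and 89 per library for both genes, the estimate of Abca1 (−0.88) lies outside the interval of both. The interval of Abca1 itself, −1.29 to −0.46, overlaps with both, and differences between these genes were not tested.

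Apoe showed the largest change of the set. Apoe (ENSMUSG00000002985, chromosome 7, 19696109 to 19699166) encodes the secreted apolipoprotein that takes up exported cholesterol, and is itself a target of LXR. It had 26.2 and 22.1 CPM in the Treg-ablated libraries and 62.9, 64.5 and 64.2 CPM in the controls. The coefficient of variation of the 3 controls was 1.36%, and both Treg-ablated libraries were far below. At 922 to 1288 counts per control, counting error alone is larger than this spread, which therefore overstates the precision. The log2 fold change was −1.40 (SE 0.0871, edgeR adjusted p = 9.5e-06), a 2.64-fold fall, and only 0.302% of all genes tested had a lower log2 fold change. It stayed between −1.53 and −1.27 in the 15 alternatives, all of which passed.

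Genes near Apoe on chromosome 7, taken by position within 50 kb, are given for comparison. Apoc2, which encodes the activator of lipoprotein lipase, had 3 and 1 counts after ablation against 16, 27 and 23 in controls (edgeR adjusted p = 0.00213). Its gene model overlaps that of Apoc4, which had 0 counts in every library. Apoc1, another apolipoprotein gene often high in lipid-laden macrophages, had 3 counts in control replicate 3 and 0 in the other libraries. Tomm40, a mitochondrial import gene directly beside Apoe, had 65.1 ± 2.89 CPM after ablation against 61.5 ± 1.73 CPM in controls and did not pass (log2 fold change 0.08, edgeR adjusted p = 0.423). Clptm1 was lower (log2 fold change −0.28, edgeR adjusted p = 0.0191), and Nectin2 did not pass (−0.19, adjusted p = 0.263).

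Neither gene of fatty acid supply and transport passed. Lpl (ENSMUSG00000015568, chromosome 8, 68880491 to 68907448), which hydrolyses lipoprotein triglycerides, had 3.15 and 2.19 CPM after ablation and 2.96, 3.36 and 2.93 CPM in controls. The first Treg-ablated library lay among the controls and the second below them (log2 fold change −0.20, 95% interval −0.68 to 0.28, edgeR adjusted p = 0.538). Fabp5 (ENSMUSG00000027533, chromosome 3, 10012548 to 10016607), an intracellular fatty acid carrier, had 11.2 and 8.98 CPM after ablation and 11.5, 12.2 and 13.2 CPM in controls. Both values were below all controls, but the log2 fold change of −0.28 did not pass (95% interval −0.56 to 0.0055, edgeR adjusted p = 0.135). Of the 50-base words in its longest transcript, 4.42% also occur in transcripts of 4 other genes (Gm13998, Gm14328, Gm6100 and Gm6166), so its counts are uncertain where reads were shared.

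Trem2 fell, with unequal values in the Treg-ablated libraries. Trem2 (ENSMUSG00000023992, chromosome 17, 48346401 to 48354147) had 2.33 and 0.905 CPM after ablation and 3.56, 3.71 and 4.25 CPM in controls. The corresponding counts were 37 and 12 against 53, 74 and 61, and the exact 95% intervals of the first 2, which cover counting error only, were 26.1 to 51.0 and 6.20 to 21.0. Both Treg-ablated libraries were below all controls, and they also differed from each other beyond counting error. The log2 fold change was −1.19 (SE 0.302, edgeR adjusted p = 0.0168), a 2.29-fold fall. It was −0.71 without Treg-ablated replicate 2 (adjusted p = 0.0677) and −2.07 without Treg-ablated replicate 1 (adjusted p = 0.00132), and the call also ended without control replicate 2 (−1.22, adjusted p = 0.0676).

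Gpnmb fell by less. Gpnmb (ENSMUSG00000029816, chromosome 6, 49036546 to 49070929), a transmembrane glycoprotein of lysosome-rich cells, had 72.5 and 77.4 CPM after ablation and 103.9, 98.8 and 103.8 CPM in controls. All controls lay above both Treg-ablated libraries, with a log2 fold change of −0.45 (SE 0.0693, edgeR adjusted p = 0.00192), a 1.36-fold fall. With 1026 to 1972 counts per library it was measured with far more counts than Trem2 or Abca1, and it passed in all 15 alternatives.

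Spp1 and Cd9 rose. Spp1 (ENSMUSG00000029304, chromosome 5, 104435118 to 104441050) encodes osteopontin, a secreted protein that binds integrins and CD44 and is made by macrophages, tumour cells and other cell types. It had 1933 and 1912 CPM after ablation and 1299, 1383 and 1372 CPM in controls. Both Treg-ablated libraries were above all controls, with a log2 fold change of 0.51 (SE 0.0697, edgeR adjusted p = 0.0011), a 1.42-fold rise that passed in all 15 alternatives. Spp1 accounted for 0.130% to 0.137% of all counts in controls, and for 0.194% and 0.193% after ablation. Of its exon bases 18.8% also belong to Gm42793 on the same strand, and how fragments in that stretch were assigned is not recorded in the files.

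Cd9 (ENSMUSG00000030342, chromosome 6, 125460266 to 125494791) encodes a tetraspanin, a membrane organiser present on many cell types. It had 276.1 and 248.4 CPM after ablation and 198.9, 213.2 and 219.7 CPM in controls. The groups did not overlap, and the log2 fold change was 0.32 (SE 0.0733, edgeR adjusted p = 0.0116), a 1.25-fold rise. The call ended without Treg-ablated replicate 1 (log2 fold change 0.24, adjusted p = 0.0722) and without control replicate 2 (0.33, adjusted p = 0.0614). Of its exon bases 10.7% overlap with Gm26728 on the opposite strand, and as the counting command sets no strand option, reads of the 2 genes cannot be told apart there.

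Markers of several cell types moved between the same libraries. Of 20 macrophage markers tested, 15 were lower and 5 did not pass (median log2 fold change −0.68), and Csf1r, which encodes the CSF-1 receptor, had a log2 fold change of −1.19 (edgeR adjusted p = 6.79e-05). Of 12 T and NK cell markers 10 were higher, with a summed level of 22.8 to 28.3 CPM in controls against 87.4 to 90.7 CPM after ablation, and Cd8a had a log2 fold change of 1.86 (edgeR adjusted p = 6.79e-05). The 6 B cell markers summed to 13.5 to 16.4 CPM in controls and 53.6 to 65.9 CPM after ablation. Of 14 fibroblast markers 7 were lower and 1 higher. The 7 epithelial and tumour markers summed to 292 to 317 CPM in controls and 259 to 301 CPM after ablation. The 5 adipocyte markers, which could have accompanied Lpl and Cd9, summed to at most 0.348 CPM in any library. No marker in these lists was at 0 in all 5 libraries. The part of these shifts in the changes of the 10 genes was not tested.

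Set against the macrophage markers of the same library, Apoe was still lower after ablation. Each gene's count was divided by the summed counts of the 22 macrophage markers, as a description with no test. Because the marker sum itself was lower after ablation, a gene with the same CPM in all 5 libraries would have a log2 ratio of 0.67 on this scale. Genes that rose in CPM, such as Spp1 and Cd9, had to be higher on it, so it adds nothing on their direction. Apoe had 6.33% and 6.41% of that sum after ablation, and 10.2%, 10.8% and 11.0% in controls. Trem2 had 0.564% and 0.262% against 0.576%, 0.618% and 0.727%, and Abca1 0.61% and 0.656% against 0.772%, 0.726% and 0.704%. These 3 genes were lower in both Treg-ablated libraries than in any control on this scale too, Trem2 narrowly so in replicate 1. The scale depends on the markers summed. Lyz2 alone gave 2017 of 6561 marker counts in Treg-ablated replicate 1, and 3045 of 9199 in control replicate 1. Csf1r (log2 fold change −1.19) and C1qa (−1.12) fell by more than Abca1 (−0.88), and Lyz2 (−0.82) by less. Cd68 had a log2 fold change of −0.24 and did not pass (edgeR adjusted p = 0.11). Against other markers Abca1 and Trem2 could thus lie differently.

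Gpnmb did not keep its direction on this scale. It had 17.5% and 22.4% of the marker sum after ablation against 16.8%, 16.5% and 17.8% in controls, so that the groups overlapped. Spp1 counts were 467% and 554% of the marker sum after ablation, and 210%, 231% and 235% in controls. Cd9 counts were 66.7% and 72.0%, against 32.2%, 35.5% and 37.6%. Abcg1, Lpl and Fabp5 were also above every control on this scale, by a log2 ratio of the group means of 0.74, 0.44 and 0.37, and Nr1h3 overlapped. The ratios of Lpl and Fabp5, and those of Gpnmb (0.23) and Nr1h3 (0.26), lie below the 0.67 of a gene with equal CPM. That of Abcg1 is close to it, and those of Spp1 (1.18) and Cd9 (0.98), which also rose in CPM, lie above it.

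**Figure D3:**
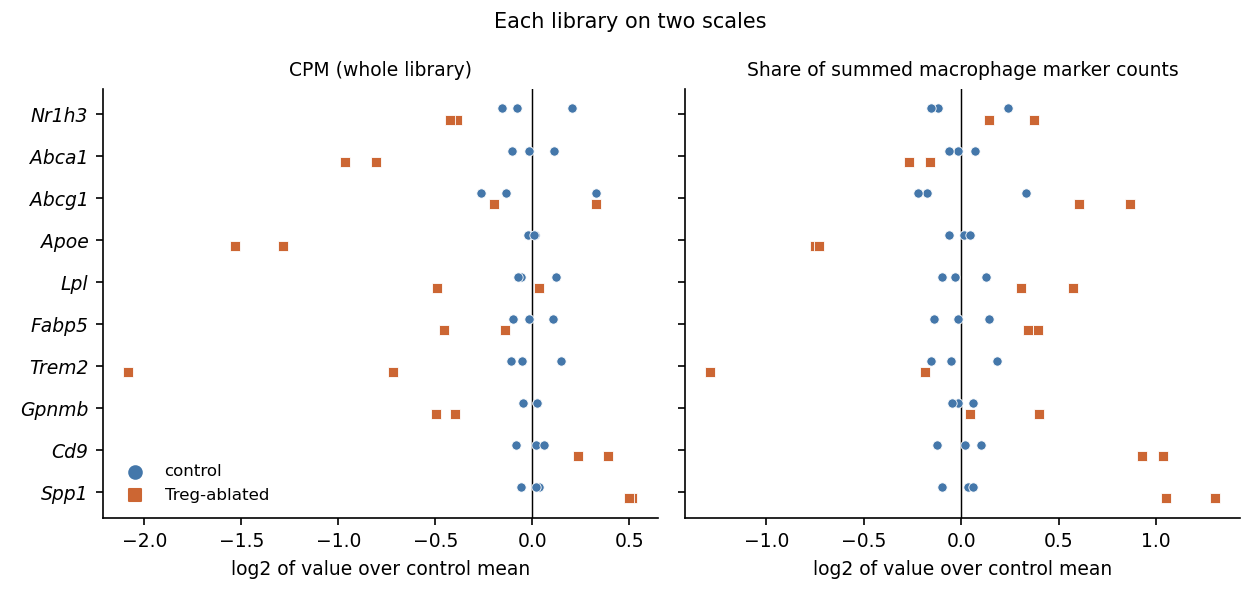
Value of each library relative to the control mean (log2), on the CPM scale (left) and as a share of the summed macrophage marker counts (right), with controls as circles and Treg-ablated libraries as squares. Apoe, Trem2 and Abca1 lie left of all controls in both panels, and Spp1 and Cd9 lie right of all controls in both. As the marker sum was lower after ablation, genes higher in the left panel had to be higher in the right panel. Gpnmb lies left of all controls in the left panel and overlaps with them in the right panel.

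Other genes of cholesterol efflux and the LXR pathway were more often lower than higher. Of 22 tested, 1 was higher, 9 were lower and the other 12 missed the threshold (45.5% called, against 25.8% of all genes), with a median log2 fold change of −0.18 (−0.0062 over all genes tested). Besides Apoc2, Npc1, which moves cholesterol out of lysosomes, fell from 119 ± 3.03 to 81.8 ± 11.4 CPM (edgeR adjusted p = 0.00223). Arl4c, a small GTPase that LXR can induce, was the member that rose, from 214 ± 2.41 to 279 ± 8.06 CPM (edgeR adjusted p = 0.00225). Rxra and Nr1h2, singled out after their values were seen, encode the dimer partner of LXR and LXR beta. Rxra fell 1.33-fold (edgeR adjusted p = 0.00526), and Nr1h2 had a log2 fold change of −0.020 (adjusted p = 0.874), which turned to 0.0012 when scaled by library size alone. Without control replicate 2, 4 of the list were lower.

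Among the partners and signalling genes of TREM2, 1 of 15 tested was higher, 7 were lower and the other 7 missed the threshold (53.3% called, against 25.8% of all genes), with a median log2 fold change of −0.37. Cd33, a receptor of the sialic acid-binding family, rose from 12.3 ± 1.05 to 19.9 ± 1.55 CPM (edgeR adjusted p = 0.00209). Vav2, a guanine nucleotide exchange factor, fell 1.29-fold (adjusted p = 0.00784). Ms4a6d fell 1.51-fold (adjusted p = 0.0122) and Trem1, a related activating receptor, 1.65-fold (adjusted p = 0.015). Tyrobp, the adaptor through which TREM2 signals and itself among the macrophage markers, was singled out after its value was seen. It fell from 24.2 ± 1.15 to 17.4 ± 3.38 CPM (log2 fold change −0.47, edgeR adjusted p = 0.0177). When Treg-ablated replicate 2 or control replicate 2 was left out, 1 of the list was lower, and the calls of Ms4a6d, Trem1 and Tyrobp ended. That of Tyrobp also ended with the correction for GC content (adjusted p = 0.0502). With the GC correction 4 were lower, and 2 were higher when Treg-ablated replicate 1 was left out.

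Of 26 other lipid-associated macrophage genes, 6 were lower, 2 were higher and 18 did not pass (median log2 fold change −0.10). The share called, 30.8%, was near the 25.8% of all genes. Igf1, a growth factor gene, fell from 3.64 ± 0.32 to 1.5 ± 0.101 CPM (edgeR adjusted p = 0.00294), and Clec7a, which encodes the beta-glucan receptor Dectin-1, rose from 15.1 ± 1.22 to 23.0 ± 2.87 CPM (adjusted p = 0.00401). Vat1 and the lysosomal protease gene Ctsd fell 1.24-fold and 1.22-fold (edgeR adjusted p = 0.0116 and 0.0173). These calls were both lost with the correction for GC content, without control replicate 2 and without Treg-ablated replicate 2 (adjusted p between 0.0531 and 0.105). The number lower was 1 without Treg-ablated replicate 2, 2 without control replicate 2, 3 with the GC correction and 10 with the correction for gene length, and the number higher was 1 with DESeq2 and when control replicate 2 or Treg-ablated replicate 1 was left out.

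Receptors for apolipoprotein E and lipoproteins were lower in 6 of 10 genes tested, and the other 4 did not pass (60% called against 25.8% of all genes, median log2 fold change −0.32). Lrp1, a large endocytic receptor gene, fell from 1935 ± 218 to 1201 ± 188 CPM (edgeR adjusted p = 0.00273). The proteoglycan genes Hspg2 and Sdc1 fell 1.66-fold and 1.34-fold (edgeR adjusted p = 0.00228 and 0.00261).

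Regulators of lipoprotein lipase went both ways, with 2 of 8 tested higher, 2 lower and 4 not passing (50% called against 25.8% of all genes, median log2 fold change −0.18). Angptl4, an inhibitor of the enzyme, rose from 13.3 ± 1.09 to 24.5 ± 2.24 CPM (edgeR adjusted p = 0.000639). Pcsk6, a proprotein convertase, fell 1.59-fold (adjusted p = 0.0121), Apoc2 being the other lower gene. The number higher was 1 when control replicate 2 or Treg-ablated replicate 1 was left out. The call of Pcsk6 ended without Treg-ablated replicate 2 and without control replicate 2 (edgeR adjusted p = 0.0526 and 0.066).

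Genes of fatty acid uptake, storage and oxidation mostly did not pass: 3 of 21 tested were higher, 2 lower and 16 not called (median log2 fold change −0.066), a share of 23.8% called against 25.8% of all genes. Acadl and Acadm, dehydrogenases of fatty acid oxidation, rose 1.27-fold and 1.23-fold (edgeR adjusted p = 0.00378 and 0.0134), and Slc27a4, a fatty acid transporter, and Plin3, a lipid droplet protein, fell 1.31-fold and 1.23-fold (adjusted p = 0.00445 and 0.0197). Without control replicate 2, 1 was higher and 1 lower, and the calls of Acadm and Plin3 ended. Acadm also lost its call without Treg-ablated replicate 1, and Plin3 without Treg-ablated replicate 2 and with the GC correction.

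Genes related to osteopontin and CD9 changed in both directions. Of 8 osteopontin receptors tested, Cd44 was higher (1.23-fold, edgeR adjusted p = 0.0113), and the integrin genes Itgb5 and Itga5 were lower (1.23-fold and 1.17-fold, adjusted p = 0.00885 and 0.025). These 3 calls ended without control replicate 2 (edgeR adjusted p between 0.0601 and 0.114), and Itga5 was also lost with the GC correction and when control replicate 1 or Treg-ablated replicate 1 was left out. Itga9, another integrin gene, did not pass (log2 fold change −0.69, adjusted p = 0.108). The share called was 37.5%, against 25.8% of all genes. Of 13 tetraspanins and CD9 partners, 3 were higher and 4 lower (53.8% called). Hbegf, the growth factor whose membrane form binds CD9, rose from 40.7 ± 0.875 to 66.4 ± 8.74 CPM (edgeR adjusted p = 0.000628), and Tspan9 fell from 171 ± 0.291 to 108 ± 3.44 CPM (adjusted p = 0.000225). Cd151 and Tspan14 fell 1.27-fold and 1.24-fold (edgeR adjusted p = 0.0111 and 0.0115), calls that ended without Treg-ablated replicate 2 and without control replicate 2. Without control replicate 2, 1 of these 13 was higher and 1 lower. Without Treg-ablated replicate 1, and with DESeq2, 1 was higher, and without Treg-ablated replicate 2, 2 were lower. The last list held the MITF and TFE factors, lysosomal transcription factors that can drive Gpnmb, together with regulators such as Flcn and Rragc. Of its 7 genes tested (14.3% called), only the factor gene Tfe3 was lower (1.24-fold, edgeR adjusted p = 0.0128). That call was lost with the GC correction and when control replicate 2 or Treg-ablated replicate 2 was left out.

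**Figure D4:**
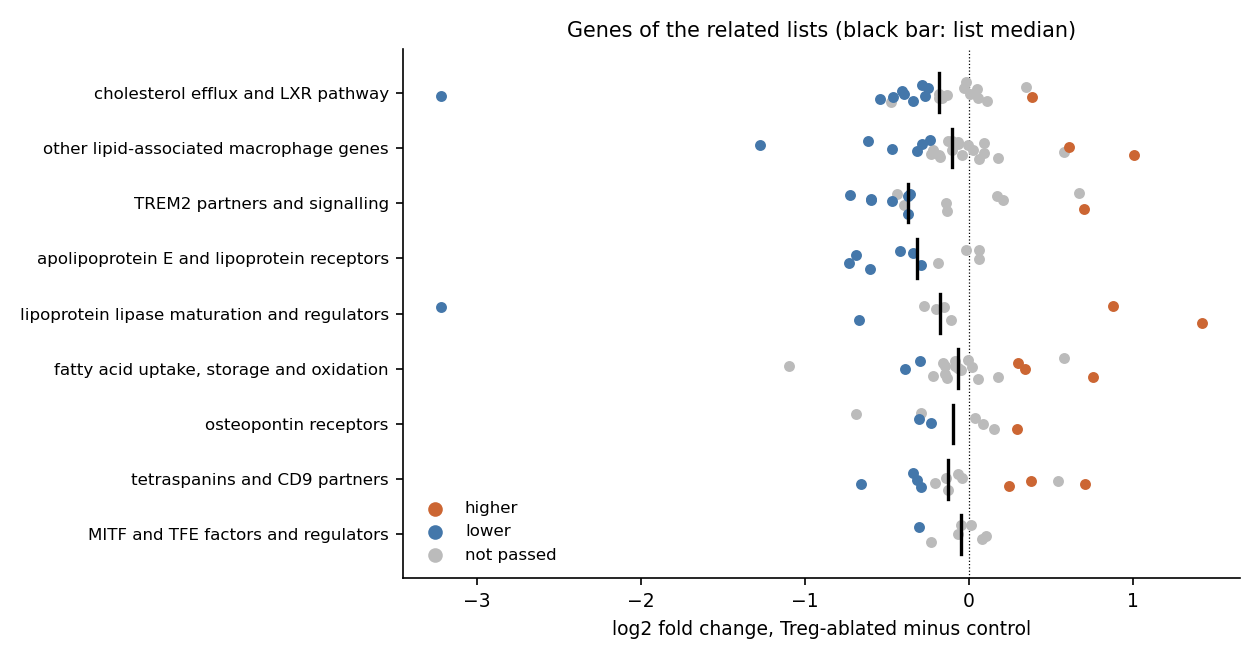
Log2 fold change (Treg-ablated minus control) of each tested gene in the 9 related lists, with called genes coloured, genes that did not pass in grey and a black bar at the list median. The lowest point is Apoc2, with 3 and 1 counts after ablation, so that its position depends on the prior count of the fit, and the lowest list median is −0.37, of the TREM2 partners.

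The profiles most like that of Apoe over the 5 libraries were those of Cd93, Csf1r, C4b, Fcgr1 and C1qa, in this order. Likeness was the root mean square distance between log2 CPM profiles, each centred on its mean, among 9220 other genes with a mean log2 CPM of at least 3, and was 0.13 for Cd93 and 0.17 for C1qa. Their log2 fold changes lay between −1.21 for Cd93 and −1.11 for C4b. For Spp1 the nearest were Pex3, Bnip3, Rheb, Apopt1 and Rnf19b, with distances of 0.022 to 0.030 and log2 fold changes between 0.48 and 0.53. These genes share their libraries and depth with Apoe and Spp1, and with 5 libraries many genes can have like profiles.

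**Figure D5:**
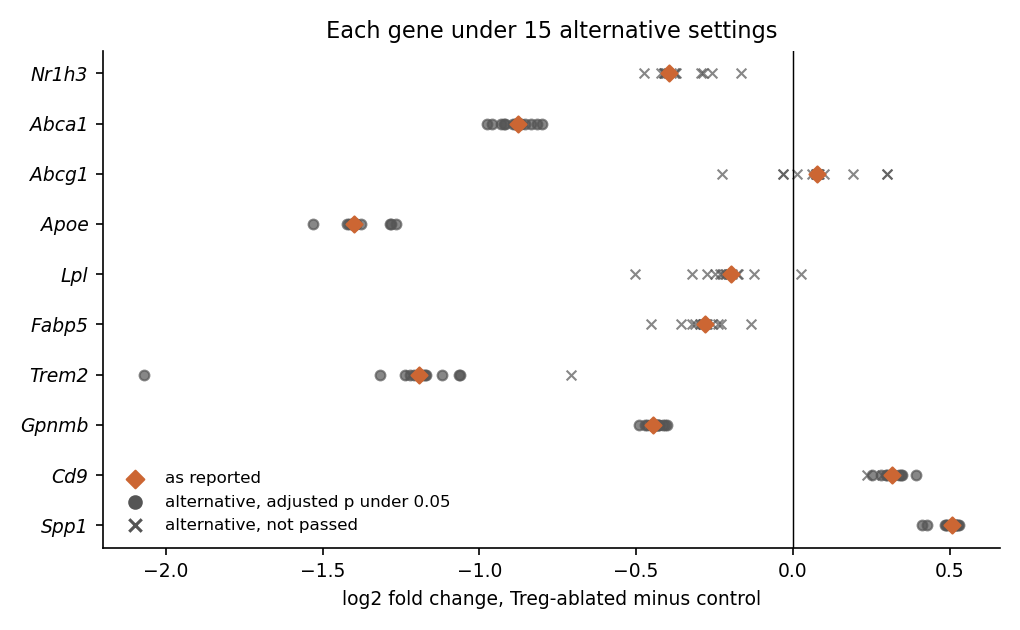
Log2 fold change of each of the 10 genes as reported (diamonds) and under 15 alternative settings (circles where the adjusted p was under 0.05, crosses where it was not). Apoe, Abca1, Gpnmb and Spp1 passed under all 15, Trem2 under 13 and Cd9 under 12, while Abcg1 and Lpl cross 0.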

How the data were processed

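The measurements are RNA-seq counts per gene in 5 libraries, 2 Treg-ablated and 3 control, with groups and replicate numbers from the sample titles. The deposited counts are raw fragments over exons, summed per gene by featureCounts 1.6.2 with no strand or multi-mapping option, per the file headers, which name an Ensembl 83 annotation (GRCm38, filtered). Trimmomatic 0.33 and FastQC 0.11.5 are also listed in the submitters' processing notes. Exon lengths are those deposited in the same files. Of 46983 Ensembl identifiers, 46488 were matched to a symbol.

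The filter filterByExpr kept 14580 genes, and edgeR 4.0.16 (R 4.3.3) gave TMM factors and quasi-likelihood tests without a block, with Benjamini-Hochberg adjustment over all genes and a threshold of 0.05. The SE is the log2 fold change over the square root of F. All 95% intervals of log2 fold changes use the t distribution with the degrees of freedom of the fit. A count of 3 corresponds to 0.15 to 0.226 CPM per library. Libraries within a group differed by more than sampling noise (chi-square per degree of freedom 3.88 to 7.24), so none was treated as a duplicate. On simulated counts the test recovered 62.7%, 82.1% and 100% of genes changed 1.5-fold, 2-fold and 4-fold over 14341 genes tested, and 7.39% of its calls were unchanged genes. Only 67, 67 and 66 genes were changed, all with a mean of at least 1 CPM. In the data 25.8% of genes were called, so these rates need not hold there.

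The members, the lists and the motifs were chosen with earlier results of these data known. Named genes are the members, up to 4 genes per related list with the smallest p, fixed markers and the 5 genes nearest in profile to Apoe and Spp1. Some genes that this rule names are not reported here. The tests were repeated with DESeq2 1.42.0, with limma-voom (limma 3.58.1), with 2 other low-count filters, with library size alone or RLE factors, with the replicate number as a block, with offsets on GC content (GENCODE M21 transcripts) or gene length, and without each library in turn. Where this left a single Treg-ablated library, its spread was assumed to be that of the controls.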

Additional observations from a re-analysis of the deposited data

How the results depend on the processing

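Abca1, Apoe, Gpnmb and Spp1 kept their direction and their call in all 15 alternatives, and Nr1h3 and Fabp5 stayed without a call and negative in all 15. The call of Cd9 ended in 3 and that of Trem2 in 2, and neither changed sign. Leaving out 1 library at a time gave 812 to 1687 genes higher and 554 to 1538 lower over all genes, the lowest of both without control replicate 2, and 1 to 2 members higher and 3 to 4 lower. The replicate number as a block gave 1296 genes higher and 1116 lower. With the GC offset and the replicate block together, 1172 were higher and 1031 lower, and 1 member was higher, as Cd9 no longer passed (adjusted p = 0.05002). The cause was not tested. Under the same combination Vav2, Sdc1, Slc27a4, Acadl and Rxra also lost their calls (adjusted p between 0.051 and 0.101), 4 efflux and LXR genes and 3 lipoprotein receptors were lower, and 1 and 0 fatty acid genes were higher and lower. With the block alone 3 other lipid-associated macrophage genes were lower, 1 fatty acid gene was higher and 1 lower, and 2 tetraspanins or partners were lower. Under the block, 0 osteopontin receptors and 0 MITF and TFE factors or regulators were called. The length offset gave 3 TREM2 partners and 2 osteopontin receptors higher and 2 MITF and TFE factors or regulators lower. Library size alone, and a filter at 1 CPM in 2 libraries, gave 2 TREM2 partners higher. A filter at 1 count in any library gave 4 lipoprotein lipase regulators lower and 5 tetraspanins or partners higher. The same replicate number did not go with like deviations from the group means (correlations −0.23 and −0.021 for replicates 1 and 2 over 14580 genes). The deviations of 2 Treg-ablated libraries from their own mean mirror each other, so this check cannot decide whether libraries were paired. The main fit did not take the replicate numbers as a pairing. These are the numbers of the titles, which the block also used. The deposited files number the Treg-ablated libraries 2 and 3 instead, by which the correlations were 0.021 and −0.20, and no block was fitted on those. Genes without a call changed sign in some fits. The log2 fold change of Abcg1 was −0.032 with the replicate block, and ran from −0.23 without Treg-ablated replicate 1 to 0.30 without Treg-ablated replicate 2, with −0.033 without control replicate 3. That of Lpl ran from −0.50 without Treg-ablated replicate 1 to 0.027 without Treg-ablated replicate 2. Nr1h2 had 0.0012 with library size alone, 0.11 with the GC offset, 0.11 with the GC offset and replicate block and 0.076 without Treg-ablated replicate 2. Rragc had −0.034 with the GC offset and −0.0092 with the GC offset and replicate block. Col3a1 had −0.061 with the replicate block, −0.014 with the GC offset, −0.12 with both, −0.0085 without Treg-ablated replicate 2 and −0.060 without control replicate 3. Trem2, Abca1, Abcg1, Nr1h3 and Lpl had at most 89 counts per library, and recovery of changes at such counts was not tested separately.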
